A study of Arabidopsis thaliana with 27 samples.

Results

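The genes described here are the 100 Arabidopsis thaliana genes, of 32678 gene identifiers counted, whose RNA was higher in lines carrying the vil1-1 mutation in all 4 settings compared. They were chosen by measured values. For each gene, CPM (reads of the gene per library total in genes, scaled to the same total in every library) was averaged over the 3 libraries of a group, 0.5 was added and the log2 was taken. A vil1-1 line was then set against its VIL1 parent 4 times, as vil1-1 minus Col-0 and as vil1-1 cop1-4 minus cop1-4, at ZT6 and at ZT0. Genes were ranked by the smallest of the 4 differences, and the highest 100 were taken, leaving out QQS (AT3G30720), a gene of starch metabolism whose smallest difference was 2.52.

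RNA was measured in whole seedlings, raised for roughly a week on MS medium at 22 °C with 8 h of light and 16 h of darkness a day. ZT (zeitgeber time) is the hour after the lights come on, which puts ZT6 in the light and ZT0 at the end of the night. The lines were the single mutants vil1-1, cop1-4 and hy5-215, the double mutant vil1-1 cop1-4, and the wild type, the accession Col-0. Tests between lines set the single mutants against Col-0 and the double mutant against cop1-4. At ZT6 there were vil1-1, vil1-1 cop1-4, cop1-4 and Col-0, and at ZT0 hy5-215, vil1-1, vil1-1 cop1-4, cop1-4 and Col-0, with 3 libraries in each of the 9 groups and 27 in all. The labels name 1 allele per gene and no transgene, and hy5-215 was sampled at ZT0 alone. Whether replicates came from separate cultures is not said, so a p-value speaks only to the spread among these libraries, and that spread may be technical.

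VIL1 (AT3G24440), also called VRN5, is a plant homeodomain protein that works with Polycomb repressive complex 2 (PRC2), the enzyme complex that places the repressive mark H3K27me3 on chromatin, and is best known for the silencing of the floral repressor FLC after cold. COP1 is a ubiquitin ligase that represses light responses in the dark, and HY5, a basic leucine zipper transcription factor that promotes light responses, is one of the proteins it marks for degradation. Seeds store proteins in vacuoles and oil in oil bodies, and seedlings convert the oil to sugar through the glyoxylate cycle after germination. The genes of storage and desiccation tolerance are switched off in seedlings, with PRC2 among the factors that keep them off.

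VIL1 RNA checked the labels. At ZT6, VIL1 had 4.62, 6.21 and 6.95 CPM in vil1-1, 5.61, 5.94 and 6.06 in vil1-1 cop1-4, 20.8, 17.7 and 17.5 in cop1-4, and 23.5, 23.9 and 22 in Col-0. At ZT0 VIL1 had 16.8, 14.9 and 14.8 CPM in hy5-215, 5.08, 4.79 and 5.48 in vil1-1, 5.67, 5.91 and 5.03 in vil1-1 cop1-4, 17.9, 18.3 and 18.2 in cop1-4, and 16, 16.7 and 16.2 in Col-0. VIL1 RNA was lower in every library of both vil1-1 lines than in any library with the wild-type gene, by 3.89-fold at ZT6 and 3.18-fold at ZT0 against Col-0, and by 3.18-fold at ZT6 and 3.26-fold at ZT0 in the cop1-4 background. It was still read in vil1-1 plants, so counts of VIL1 alone do not show whether its product was made.

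Libraries held 19.7 to 33.6 M reads in genes (M, mega), with a median of 23 M. All 100 genes passed the filter on low counts, which kept 21448 genes. Levels below are CPM on library sizes scaled by TMM, a scaling that takes most genes as unchanged between libraries. Without TMM, on gene totals alone, the median log2 difference of all genes moved by -0.58 in cop1-4 against Col-0 at ZT0, by -0.25 in the same comparison at ZT6, by -0.14 in hy5-215 against Col-0, and by 0.22 and 0.25 for ZT6 against ZT0 in cop1-4 and in vil1-1 cop1-4. The hy5-215 libraries carry archive numbers apart from the others, so that a batch and the hy5-215 genotype cannot be told apart. Reads not counted in any gene made up 9.18, 7.35 and 7.93% in the hy5-215 libraries, against 3.76 to 6.08% in the other libraries. Genes with at least 1 read numbered 23195 to 23515 in hy5-215 and at most 23040 in any other library. The part of these differences in the hy5-215 results was not tested. In whole seedlings, fewer cells of a type and less RNA per cell cannot be told apart either.

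The 4 differences that chose the genes are given as a description, without tests. Their medians over the 100 genes were 1.27 in vil1-1 minus Col-0 at ZT6, 1.20 in the same pair at ZT0, 1.41 in vil1-1 cop1-4 minus cop1-4 at ZT6 and 1.46 in that pair at ZT0, on the log2(CPM + 0.5) scale, against a median of 0 over all identifiers in each. The smallest of the 4 ranged from 0.710 to 2.47, with a median of 0.986, and it was at least 1, a doubling, in 49 genes. At the lower end a difference of 0.710 is a 1.64-fold higher level. In 97 of the 100 genes every library of the vil1-1 line lay above every library of its VIL1 parent in all 4 pairs. Among all kept genes 443 did so, or 2.07%, which the choice of the genes fixes in large part. The edgeR test called 97, 97, 99 and 97 of the 100 genes higher in vil1-1 at ZT6 (10.4% of all kept genes), vil1-1 at ZT0 (5.19%), vil1-1 cop1-4 at ZT6 (10.2%) and vil1-1 cop1-4 at ZT0 (9.36%). The rule used these same contrasts, so nothing is read from those counts.

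The threshold fell in a dense stretch of values. The 5 genes just inside it were AT4G31520 at 0.717, AT3G62460 at 0.715, GolS1 at 0.715, AT5G64870 at 0.714 and AT2G37030 at 0.710. The 5 genes just outside it were AT4G25580 at 0.709, CRU3 at 0.706, PHT1;5 at 0.705, AT5G38565 at 0.704 and AT4G37220 at 0.696. CRU3, a cruciferin seed storage protein, is thus left out by a margin of less than 0.01, while GolS1, a galactinol synthase, is inside by as little.

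**Figure D1:**
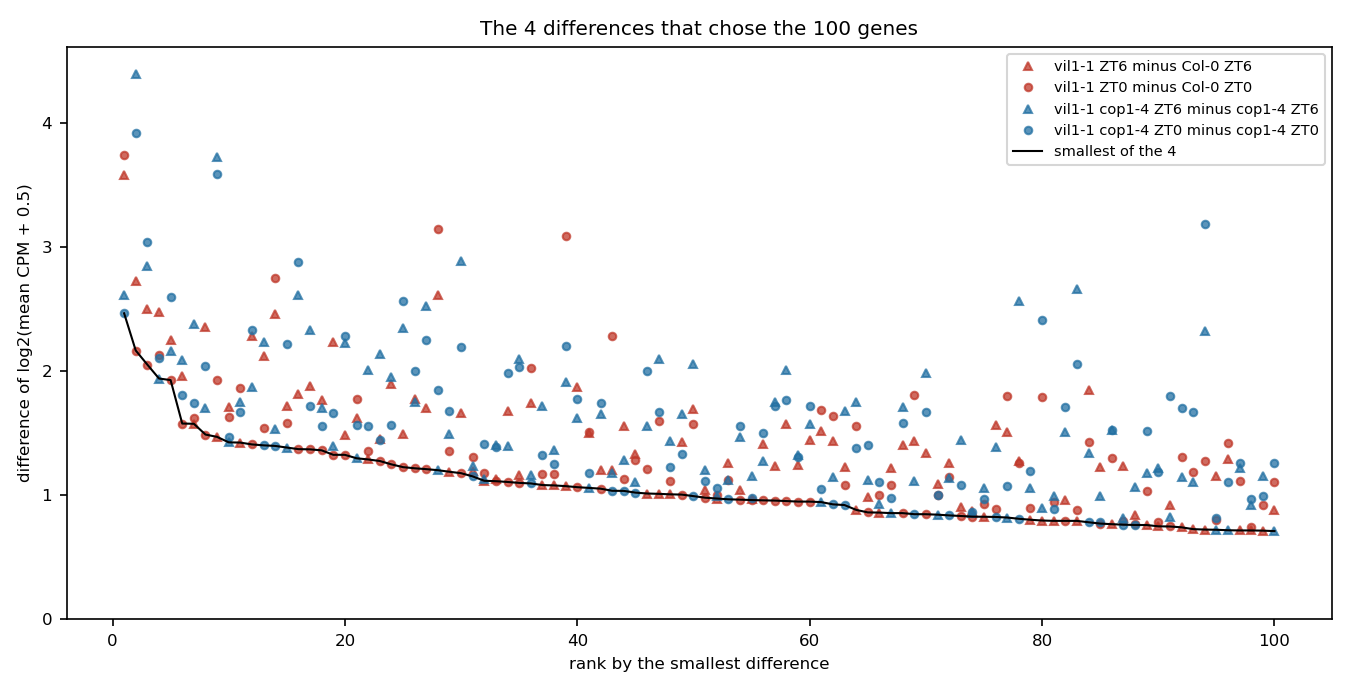
The 4 log2 differences that chose the genes, for each of the 100 genes in order of the smallest of them (black line); triangles are ZT6 and circles ZT0, red the Col-0 background and blue the cop1-4 background. The smallest difference falls from 2.47 to 0.710 over the 100 genes, while single differences reach 4.40.

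The 12 genes with a symbol and the largest smallest difference are led by CRA1 and M17. They are CRA1, M17, ICL, DELTA-VPE, HSD6, PAP85, NDB3, EXPA2, BETA-TIP, MYB101, sks13 and NRPE3B. CRA1 had differences of 3.58 at ZT6 and 3.75 at ZT0 between vil1-1 and Col-0, and 2.61 at ZT6 and 2.47 at ZT0 between vil1-1 cop1-4 and cop1-4. M17 had differences of 2.73 at ZT6 and 2.17 at ZT0 between vil1-1 and Col-0, and 4.40 at ZT6 and 3.92 at ZT0 between vil1-1 cop1-4 and cop1-4. PAP85 had differences of 1.47 at ZT6 and 1.93 at ZT0 between vil1-1 and Col-0, and 3.73 at ZT6 and 3.59 at ZT0 between vil1-1 cop1-4 and cop1-4. On the scale of the rule, CRA1, a cruciferin, thus had larger differences in the Col-0 background. M17, a late embryogenesis abundant protein, and PAP85, a vicilin-like storage protein, had larger differences in the cop1-4 background. CRA1 was read at very low levels in both Col-0 and cop1-4, where the amount added to CPM limits the difference. At ZT0 the order of the backgrounds for CRA1 thus depends on that scale, while at ZT6 the plain ratio of mean CPM keeps the order.

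Among the 100 genes, 75 had their lowest mean of the 4 lines in cop1-4 and 25 in Col-0, at ZT6 and again at ZT0. The highest mean was in vil1-1 for 68 genes at ZT6 and 71 at ZT0, and in vil1-1 cop1-4 for the other 32 and 29. The rule fixes that a vil1-1 line is highest and a VIL1 line lowest, but not which. The mean of the double mutant was within 2-fold of the Col-0 mean in 55 of the 100 genes at ZT6 and 57 at ZT0, shares below the 86% and 80.2% of all kept genes. It was above the Col-0 mean in 86 genes at ZT6 (48% of all kept genes) and 88 at ZT0 (48.6%). The median log2 difference between vil1-1 cop1-4 and Col-0 was 0.80 at ZT6 and 0.75 at ZT0, against -0.02 and -0.0083 over all kept genes. These values are given with no test, since the rule used the libraries of both lines.

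**Figure D2:**
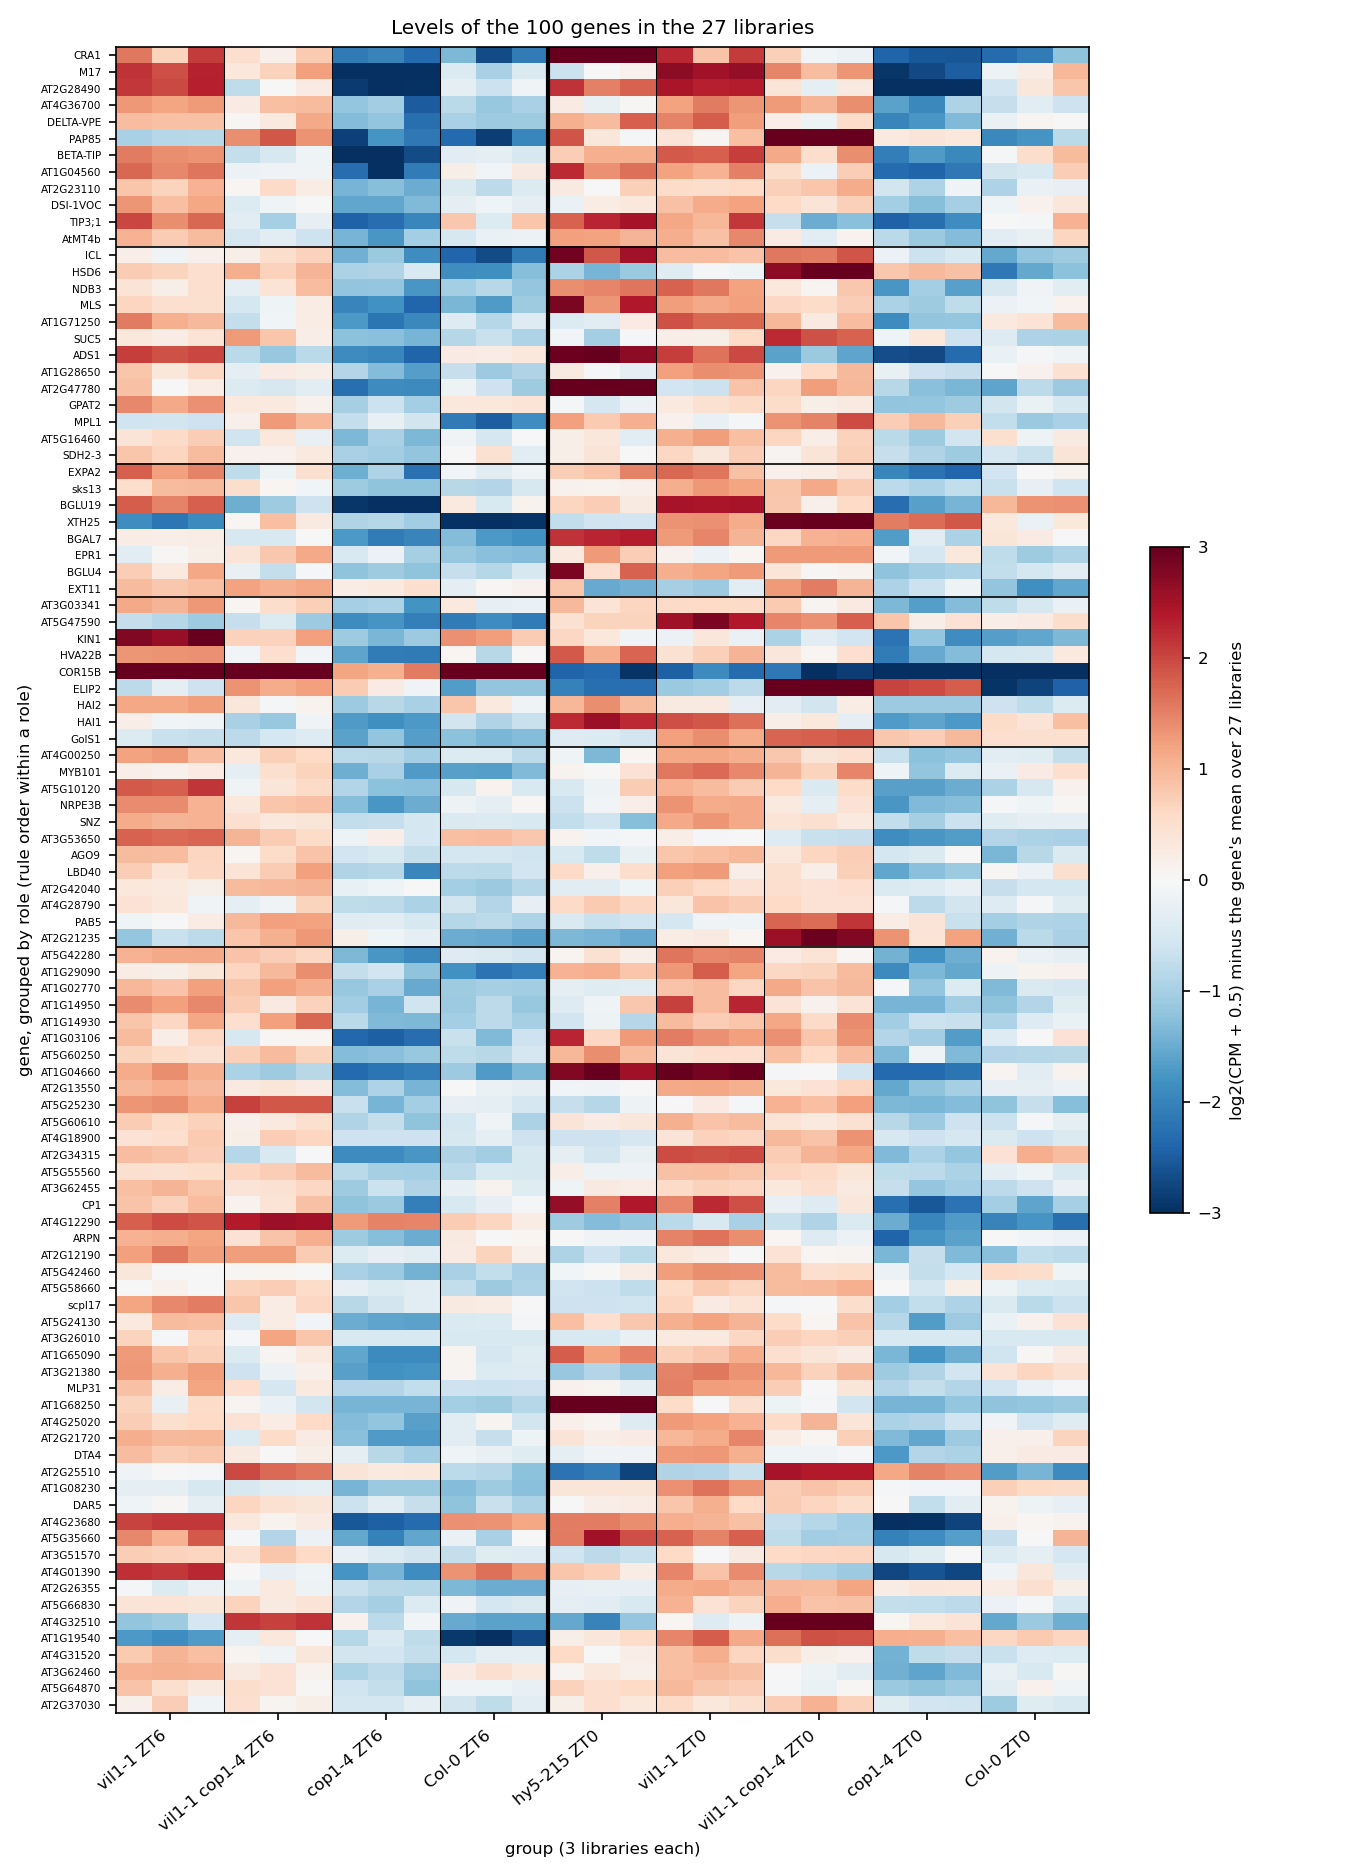
Levels of the 100 genes (rows, grouped by role) in each of the 27 libraries (columns, 3 per group, ZT6 left of the thick line and ZT0 right of it) as log2(CPM + 0.5) minus the gene's mean over all libraries; colours end at -3 and 3. The columns of each vil1-1 line are redder than those of its VIL1 parent, which the rule fixes, 75 of the 100 genes have their lowest mean in cop1-4 at each time, and the hy5-215 columns hold both red and blue genes.

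The comparisons that the rule did not use give the tests. They are hy5-215 against Col-0 at ZT0, cop1-4 against Col-0 at ZT6 and at ZT0, and ZT6 against ZT0 within vil1-1, vil1-1 cop1-4, cop1-4 and Col-0. They are not free of the rule altogether: the Col-0 and cop1-4 libraries entered the choice, which favours genes with low values there, and the hy5-215 and cop1-4 comparisons at ZT0 share the same Col-0 libraries. Calls are made at an edgeR adjusted p under 0.05 over all 21448 kept genes.

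In hy5-215, 51 of the 100 genes were higher than in Col-0 and 10 were lower, where 20% and 19% of all kept genes were. Of the 51, 41 were at least 2-fold higher (4.7% of all kept genes), and of the 10, 2 were at least 2-fold lower (2.35%). Their median log2 difference was 0.75, against 0.0046 over all kept genes. Every hy5-215 library lay above every Col-0 library for 50 of them (25.3% of all kept genes) and below for 14 (24.2%). For 25 of the 100 genes the hy5-215 mean was also above the vil1-1 mean at ZT0. The rule favours genes with high vil1-1 values at ZT0, and the share over all kept genes was not taken. Nothing is read from that count.

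In cop1-4, 17 of the genes were higher and 51 lower than in Col-0 at ZT6, where 32.6% and 34% of all kept genes were, and 15 were higher and 56 lower at ZT0, where 34.7% and 33.9% were. Of those, 45 were at least 2-fold lower at ZT6 (14.4% of all kept genes) and 46 at ZT0 (15.6%), and 10 were at least 2-fold higher at ZT6 (6.91%) and 10 at ZT0 (11.6%). The median log2 difference was -0.98 at ZT6 and -1.08 at ZT0, against -0.02 and -0.0018 over all kept genes. At both times 41 genes were lower (21.8% of all kept genes) and 11 higher (22.8%), and 1, the cysteine proteinase gene AT1G29090, was called in opposite directions (7.06%). Every cop1-4 library lay below every Col-0 library for 60 genes at ZT6 (36.1% of all kept genes) and 58 at ZT0 (35.3%), and above for 17 at ZT6 (33.8%) and 15 at ZT0 (35.9%). On gene totals without TMM, 9 genes in place of 15 were higher at ZT0.

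Between the light and the end of the night, 41 to 54 of the genes changed, depending on the line. At ZT6 against ZT0, 18 were higher and 36 lower in vil1-1 (35.7% and 33.2% of all kept genes), and 15 were higher and 39 lower in vil1-1 cop1-4 (31.7% and 32.6%). In cop1-4, 11 were higher and 30 lower (30.2% and 33.4%), and in Col-0 19 were higher and 33 lower (36.9% and 34%). The 30 to 39 lower genes thus stand beside 32.6 to 34% among all kept genes, and the 11 to 19 higher genes beside 30.2 to 36.9%. Median log2 differences were -0.26 in vil1-1, -0.30 in vil1-1 cop1-4, -0.40 in cop1-4 and -0.37 in Col-0. In all 4 lines 18 genes were lower at ZT6 (19.5% of all kept genes) and 6 higher (18.9%), while 25 were not called in any line (11.6%) and 9 were higher in 1 line and lower in another (10.4%). The counts lower in all lines and called in opposite directions are thus near the shares of all kept genes. On gene totals without TMM, 20 genes in place of 11 were higher at ZT6 in cop1-4 and 23 in place of 15 in vil1-1 cop1-4.

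**Figure D3:**
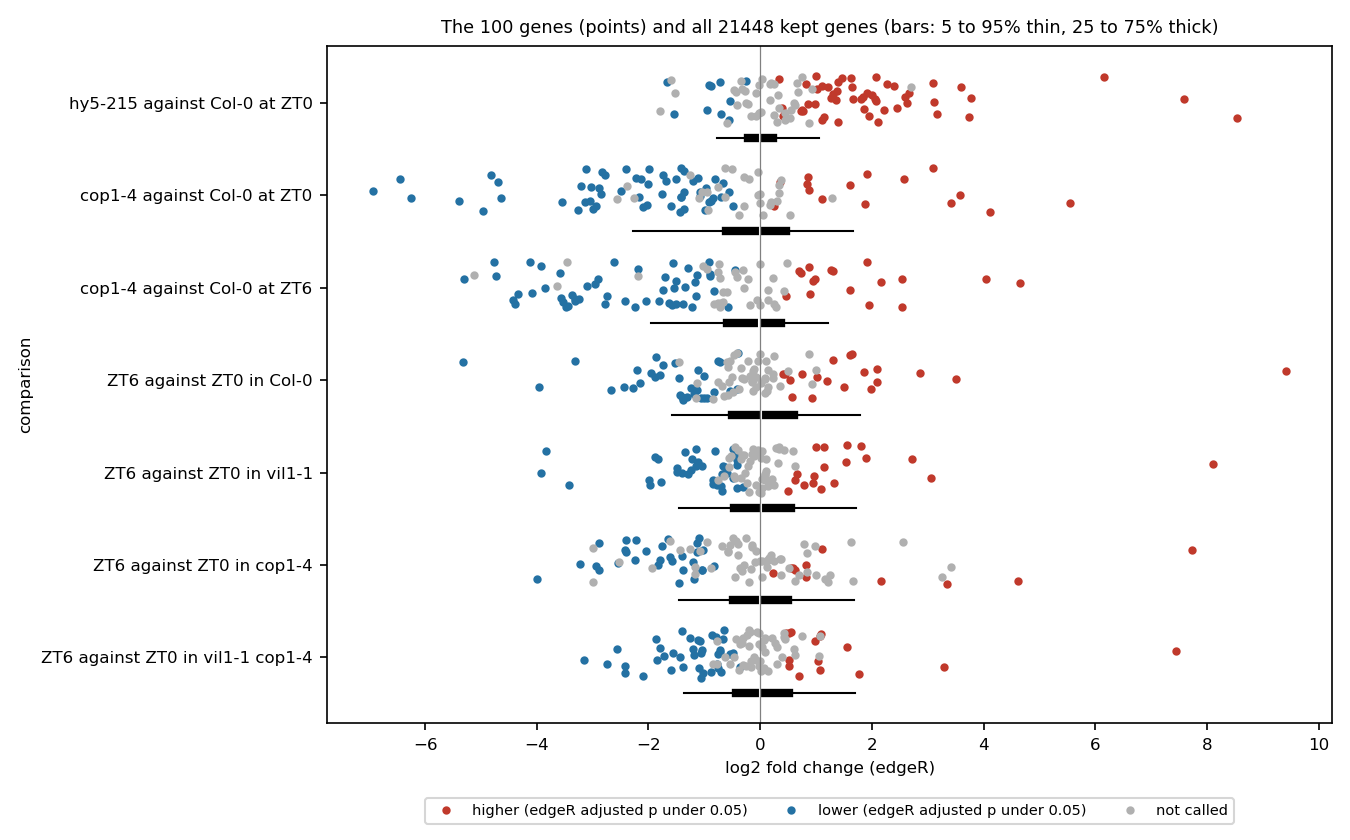
Log2 fold changes of the 100 genes in the 7 comparisons the rule did not use (points: red higher and blue lower at an edgeR adjusted p under 0.05, grey not called), with the range of all 21448 kept genes under each row (thin bar 5 to 95%, thick bar 25 to 75%). The red points of hy5-215 reach 8.54 and outnumber the blue by 51 to 10, and the blue points of cop1-4 reach -6.93, a fit that rests on 1 read in cop1-4, and outnumber the red by 51 to 17 at ZT6 and 56 to 15 at ZT0.

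To describe the genes they were sorted by known or annotated function after their values had been seen, so the groups carry no test of their own. Counts of calls in each group stand beside 20% higher and 19% lower among all kept genes in hy5-215, 32.6% and 34% in cop1-4 at ZT6, and 34.7% and 33.9% in cop1-4 at ZT0. There were 12 genes of storage proteins, late embryogenesis and the storage vacuole, 13 of lipid, oil and respiration, 8 of the cell wall and glycosidases, 9 of abscisic acid, cold and stress, 12 of transcription, chromatin and RNA, and 46 others. In the annotation text of the 100 genes a word beginning with seed, which would include seedling, stood in 18 (4.03% of all kept genes). The letters embryo, alone or within a longer word, stood in 8 (3.95%) and storage in 3 (0.564%).

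Of the 12 storage and late embryogenesis genes, 8 were higher in hy5-215 than in Col-0 and 0 lower. In cop1-4, 0 were higher and 8 lower at ZT6, and 1 was higher and 9 lower at ZT0. CRA1 encodes cruciferin, a 12S globulin and a main storage protein of the seed. At ZT6 CRA1 had 9.23, 4.62 and 13.3 CPM in vil1-1, 4.07, 3.07 and 5.07 in vil1-1 cop1-4, 0.241, 0.308 and 0.14 in cop1-4, and 0.773, 0 and 0.259 in Col-0. At ZT0 CRA1 had 79.1, 97.9 and 81.7 CPM in hy5-215, 14.9, 5.38 and 13.3 in vil1-1, 4.81, 2.54 and 2.37 in vil1-1 cop1-4, 0.115, 0.0558 and 0.047 in cop1-4, and 0.149, 0.258 and 0.893 in Col-0. The hy5-215 libraries stood far above all others, vil1-1 and vil1-1 cop1-4 came next and overlapped each other at ZT6, and no library of either overlapped Col-0 or cop1-4. CRA1 was higher in hy5-215 than in Col-0 (log2 fold change 7.59 ± 0.51 SE, edgeR adjusted p = 4.36e-10), and was not called in cop1-4 at either time, where 14 reads at ZT6 and 4 at ZT0 were counted in all 3 libraries together.

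M17 is a late embryogenesis abundant protein. At ZT6 M17 had 128, 108 and 139.7 CPM in vil1-1, 35.1, 45.5 and 66.7 in vil1-1 cop1-4, 2.56, 1.23 and 1.82 in cop1-4, and 21, 14 and 20.7 in Col-0. At ZT0 M17 had 17.7, 28 and 30.8 CPM in hy5-215, 183, 162 and 176 in vil1-1, 77.5, 53.6 and 71 in vil1-1 cop1-4, 3.27, 3.85 and 4.65 in cop1-4, and 25.1, 32.5 and 56.1 in Col-0. The groups did not overlap at ZT6, where the order was vil1-1, vil1-1 cop1-4, Col-0 and cop1-4, and at ZT0 hy5-215 overlapped Col-0. M17 was lower in cop1-4 than in Col-0 at ZT6 (log2 fold change -3.32 ± 0.47 SE, edgeR adjusted p = 4.37e-06) and at ZT0 (log2 fold change -3.26 ± 0.39 SE, edgeR adjusted p = 3.84e-07), and it did not pass the test in hy5-215 (log2 fold change -0.59 ± 0.28 SE, edgeR adjusted p = 0.113). At ZT6 against ZT0 it was lower in Col-0 (log2 fold change -1.01 ± 0.29 SE, edgeR adjusted p = 0.0038), a call lost without Col-0 replicate 3 of ZT0 (adjusted p = 0.0573) and when Col-0 alone was fitted (0.0665).

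AT2G28490, AT4G36700 and PAP85 belong to the cupin family, as the storage globulins do. At ZT6 AT2G28490 had 21.4, 19.3 and 25 CPM in vil1-1, 2.46, 4.56 and 5.48 in vil1-1 cop1-4, 0.193, 0.0513 and 0.14 in cop1-4, and 3.63, 2.74 and 4.17 in Col-0. At ZT0 AT2G28490 had 22.3, 14 and 16.5 CPM in hy5-215, 26.8, 24.7 and 25.1 in vil1-1, 6.13, 3.63 and 5.59 in vil1-1 cop1-4, 0.0573, 0.0558 and 0.094 in cop1-4, and 2.88, 5.9 and 8.49 in Col-0. AT2G28490 was almost unread in cop1-4 and not in the double mutant, whose libraries overlapped those of Col-0 at both times. It was lower in cop1-4 than in Col-0 at ZT6 (log2 fold change -4.73 ± 0.74 SE, edgeR adjusted p = 1.26e-05) and at ZT0 (log2 fold change -6.25 ± 0.78 SE, edgeR adjusted p = 6.26e-07), and higher in hy5-215 (log2 fold change 1.62 ± 0.28 SE, edgeR adjusted p = 1.06e-04).

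PAP85 departed from that pattern. At ZT6 PAP85 had 3.87, 4.2 and 4.3 CPM in vil1-1, 22, 30.5 and 21.4 in vil1-1 cop1-4, 0.724, 2.0 and 1.45 in cop1-4, and 1.19, 0.707 and 1.71 in Col-0. At ZT0 PAP85 had 31, 10.4 and 7.9 CPM in hy5-215, 10.7, 8.58 and 15.4 in vil1-1, 123, 131 and 135 in vil1-1 cop1-4, 9.97, 10.7 and 10.2 in cop1-4, and 1.72, 2.02 and 4.35 in Col-0. Its highest group was vil1-1 cop1-4 at both times, and at ZT0 the cop1-4 libraries lay above those of Col-0 (log2 fold change 1.92 ± 0.51 SE, edgeR adjusted p = 0.00248). PAP85 was also higher in hy5-215 than in Col-0 (log2 fold change 2.62 ± 0.46 SE, edgeR adjusted p = 1.38e-04), with 1 hy5-215 library well above the other two, a call lost when hy5-215 and Col-0 were fitted alone (adjusted p = 0.0686). It was lower at ZT6 than at ZT0 in cop1-4 (log2 fold change -2.89 ± 0.61 SE, edgeR adjusted p = 3.66e-04) and in vil1-1 cop1-4 (log2 fold change -2.41 ± 0.32 SE, edgeR adjusted p = 1.30e-06).

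The group also held DELTA-VPE, a vacuolar protease, and BETA-TIP and TIP3;1, water channels of the seed vacuole membrane. TIP3;1 averaged 8.31 ± 1.81 CPM in vil1-1, 1.4 ± 0.493 in vil1-1 cop1-4, 0.0793 ± 0.0965 in cop1-4 and 3.3 ± 1.56 in Col-0 at ZT6 (SD, n = 3). It was lower in cop1-4 than in Col-0 at ZT6 (log2 fold change -5.31 ± 0.93 SE, edgeR adjusted p = 4.74e-05) and higher in hy5-215 (log2 fold change 1.92 ± 0.40 SE, edgeR adjusted p = 7.03e-04). The mean of TIP3;1 in the double mutant was below that in Col-0, with 1 Col-0 library inside the double mutant's range, whereas the means of CRA1, M17 and PAP85 were above it. BETA-TIP was lower in cop1-4 at ZT6 (log2 fold change -4.12 ± 0.51 SE, edgeR adjusted p = 4.13e-07) and at ZT0 (log2 fold change -2.84 ± 0.34 SE, edgeR adjusted p = 2.48e-07), with a mean of 0.239 ± 0.199 CPM in cop1-4 against 4.33 ± 0.336 CPM in Col-0 at ZT6. DELTA-VPE was lower in cop1-4 at ZT0 (log2 fold change -2.00 ± 0.45 SE, edgeR adjusted p = 5.55e-04) and higher in hy5-215 (log2 fold change 1.46 ± 0.30 SE, edgeR adjusted p = 5.70e-04).

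The remaining members of the group were AT4G36700, the late embryogenesis protein AT2G23110, the seed metallothionein AtMT4b, DSI-1VOC, annotated as induced by desiccation, and AT1G04560, an AWPM-19-like membrane protein. AtMT4b and AT1G04560 were higher in hy5-215 by 1.31 ± 0.28 and 1.87 ± 0.32 on the log2 scale (edgeR adjusted p = 1.83e-04 and 1.07e-04) and lower in cop1-4 at both times. AT2G23110 was higher in hy5-215 as well, by 1.01 ± 0.26 (adjusted p = 0.00165). DSI-1VOC did not pass the test in hy5-215 (log2 fold change -0.02) and was lower in cop1-4 at ZT0 (log2 fold change -2.50 ± 0.43), and at ZT6 its 2 reads in cop1-4 gave a level lower by a factor of 23 (95% counting interval 6.36 to 189.7).

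Promoter sequence is shown for 7 of the genes, because short elements known from seed and abscisic acid promoters stand in it and because 5 are storage genes just described and 2, SUC5 and ICL, are genes of the lipid group described next. Each line is the 120 bases before the annotated start of the gene, 5′ to 3′ on the gene's own strand, from the RefSeq genome and annotation of the TAIR10.1 build. Capitals mark the G-box CACGTG, the abscisic acid response element core ACGTGTC or the RY element CATGCATG. The windows are AT2G28490 at chr2:12181013-12181132, minus strand. AT4G36700 is at chr4:17300368-17300487, minus strand. AT1G04560 is at chr1:1244827-1244946, plus strand. SUC5 is at chr1:27058261-27058380, plus strand. ICL is at chr3:7656054-7656173, minus strand. PAP85 is at chr3:8013942-8014061, minus strand. TIP3;1 is at chr1:27521824-27521943, plus strand. No annotated exon overlaps these windows.
AT2G28490: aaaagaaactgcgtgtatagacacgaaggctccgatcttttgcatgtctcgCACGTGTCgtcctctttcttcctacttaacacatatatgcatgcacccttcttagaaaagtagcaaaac
AT4G36700: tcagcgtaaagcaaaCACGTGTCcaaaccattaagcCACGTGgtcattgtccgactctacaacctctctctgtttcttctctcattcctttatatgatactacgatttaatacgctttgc
AT1G04560: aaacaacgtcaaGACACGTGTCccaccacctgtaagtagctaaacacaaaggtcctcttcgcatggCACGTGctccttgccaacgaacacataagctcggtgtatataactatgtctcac
SUC5: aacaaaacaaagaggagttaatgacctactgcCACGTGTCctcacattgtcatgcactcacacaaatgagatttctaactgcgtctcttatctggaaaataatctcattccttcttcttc
ICL: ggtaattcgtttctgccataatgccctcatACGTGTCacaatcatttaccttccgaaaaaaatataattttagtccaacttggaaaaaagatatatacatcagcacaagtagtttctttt
PAP85: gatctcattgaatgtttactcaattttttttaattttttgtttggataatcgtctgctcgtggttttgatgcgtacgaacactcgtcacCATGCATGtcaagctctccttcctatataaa
TIP3;1: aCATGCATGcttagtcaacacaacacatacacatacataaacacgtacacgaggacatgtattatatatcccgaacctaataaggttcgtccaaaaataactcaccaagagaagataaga
In AT2G28490, AT4G36700, AT1G04560 and SUC5 the G-box and the abscisic acid element overlap in the letters they share, and AT4G36700 and AT1G04560 hold a further G-box apart from it.

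Over the 250 bases before the start, the G-box stood in 15 of the 97 protein-coding genes of the set, or 15.5%, on either strand, against 7.44% of the promoters of 20713 kept protein-coding genes. The abscisic acid element core was in 10, or 10.3%, against 4.28%, and the RY element in 2, or 2.06%, against 0.676%. The G-box and the abscisic acid element stood together in 7, where they can share letters, and 20 of the 97 held any of the 3 elements, against 9.67% of all kept. Other elements searched were the evening element AAAATATCT (0 genes, against 2.47% of all), the telobox AAACCCTA (3, or 3.09%, against 3.49%), the GA repeat GAGAGAGA (3, or 3.09%, against 4.63%), the W-box TTGACC (7, or 7.22%, against 12.3%), the cold element core GCCGAC (3, or 3.09%, against 2.84%) and the sugar element TATCCA (15, or 15.5%, against 14.1%). These counts describe letters in a window. They carry no test, and they do not show that a factor binds there.

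Among the 13 genes of lipid, oil and respiration, 6 were higher and 1 lower in hy5-215 than in Col-0. In cop1-4, 3 were higher and 6 lower at ZT6, and 4 were higher and 8 lower at ZT0. ICL (isocitrate lyase) and MLS (malate synthase) are the enzymes particular to the glyoxylate cycle, which turns the carbon of stored oil towards sugar. At ZT6 ICL had 240.3, 193 and 232 CPM in vil1-1, 234, 299 and 338 in vil1-1 cop1-4, 76.2, 96.8 and 56.6 in cop1-4, and 39.3, 32.2 and 47.4 in Col-0. At ZT0 ICL had 1549.6, 758 and 1199.8 CPM in hy5-215, 396, 399 and 375 in vil1-1, 628, 607 and 778 in vil1-1 cop1-4, 185, 133 and 152 in cop1-4, and 71.8, 91.9 and 99.7 in Col-0. The 3 hy5-215 libraries were spread over about a 2-fold range and 2 of them lay above every other library, and Col-0 was the lowest group at both times. ICL was higher in hy5-215 than in Col-0 (log2 fold change 3.74 ± 0.25 SE, edgeR adjusted p = 4.30e-10) and in cop1-4 than in Col-0 at ZT6 (log2 fold change 0.94 ± 0.25 SE, edgeR adjusted p = 0.0028) and at ZT0 (log2 fold change 0.83 ± 0.24 SE, edgeR adjusted p = 0.00437). The ZT0 call in cop1-4 is lost on gene totals without TMM, where the log2 fold change is 0.26 (adjusted p = 0.355), while all genes shifted by -0.58. It was lower at ZT6 than at ZT0 in all 4 lines, with log2 fold changes of -1.21 to -0.81.

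MLS followed ICL in hy5-215 but not in cop1-4. At ZT6 MLS had 47.7, 42.8 and 42.7 CPM in vil1-1, 20.9, 27.9 and 35.4 in vil1-1 cop1-4, 7.29, 8.25 and 5.41 in cop1-4, and 11.5, 9.06 and 14.3 in Col-0. At ZT0 MLS had 219, 76.8 and 164 CPM in hy5-215, 73.3, 67.2 and 72.5 in vil1-1, 47.3, 44.9 and 50.9 in vil1-1 cop1-4, 15.6, 14.4 and 17.6 in cop1-4, and 26.7, 28.9 and 32.5 in Col-0. The hy5-215 libraries lay above all others and spread over a nearly 3-fold range, and cop1-4 was the lowest group at both times. MLS was higher in hy5-215 than in Col-0 (log2 fold change 2.39 ± 0.26 SE, edgeR adjusted p = 4.98e-07) and lower in cop1-4 at ZT0 (log2 fold change -0.88 ± 0.31 SE, edgeR adjusted p = 0.0164), a call lost without Col-0 replicate 3 of ZT0 (adjusted p = 0.0512). At ZT6 the cop1-4 difference did not pass the test (log2 fold change -0.76 ± 0.38 SE, edgeR adjusted p = 0.0859). At ZT6 against ZT0 MLS was lower in Col-0 (log2 fold change -1.32 ± 0.30 SE, edgeR adjusted p = 6.76e-04). It was also lower in vil1-1 (log2 fold change -0.68), in cop1-4 (-1.19) and in vil1-1 cop1-4 (-0.76), but these calls are lost when single libraries are left out. In vil1-1 that is ZT0 replicate 1 or 3 or ZT6 replicate 2 or 3 (adjusted p 0.0511 to 0.0639), in cop1-4 ZT6 replicate 3 (0.0666), and in vil1-1 cop1-4 ZT0 replicate 1 or 3 or ZT6 replicate 1 or 2 (0.0517 to 0.127). On gene totals without TMM the vil1-1 cop1-4 call is lost too (log2 fold change -0.50, adjusted p = 0.128).

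SUC5, a sucrose transporter known from the endosperm, was read at low levels. At ZT6 SUC5 had 2.5, 2.34 and 2.69 CPM in vil1-1, 5.37, 3.81 and 2.26 in vil1-1 cop1-4, 0.531, 0.513 and 0.42 in cop1-4, and 0.833, 1.02 and 0.776 in Col-0. At ZT0 SUC5 had 1.8, 0.70 and 1.81 CPM in hy5-215, 2.27, 2.23 and 3.14 in vil1-1, 10.9, 8.56 and 7.8 in vil1-1 cop1-4, 1.72, 2.51 and 1.08 in cop1-4, and 1.35, 0.775 and 0.744 in Col-0. The vil1-1 cop1-4 libraries stood above all others at ZT0, where cop1-4 overlapped Col-0, and at ZT6 the cop1-4 libraries were the lowest. SUC5 was higher in cop1-4 than in Col-0 at ZT0 (log2 fold change 0.86 ± 0.36 SE, edgeR adjusted p = 0.0343), a call lost without Col-0 replicate 2 (adjusted p = 0.106) or 3 (0.127), without cop1-4 replicate 1 (0.0803) or 2 (0.307) and on gene totals without TMM (0.465). It was not called at ZT6 (log2 fold change -0.82 ± 0.45 SE, edgeR adjusted p = 0.111). It did not pass the test in hy5-215 (log2 fold change 0.61) and was lower at ZT6 than at ZT0 in vil1-1 cop1-4 (log2 fold change -1.25 ± 0.24 SE, edgeR adjusted p = 3.28e-05) and in cop1-4 (log2 fold change -1.83 ± 0.43 SE, edgeR adjusted p = 3.58e-04).

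AT2G47780, annotated as a rubber elongation factor protein, a family that also holds proteins of lipid droplets, was among the most raised of the genes in hy5-215. At ZT0 AT2G47780 had 52.2, 32.9 and 43.5 CPM in hy5-215, 1.12, 1.04 and 3.82 in vil1-1, 3.27, 5.23 and 4.29 in vil1-1 cop1-4, 0.86, 0.503 and 0.423 in cop1-4, and 0.299, 0.904 and 0.633 in Col-0. All hy5-215 libraries lay far above those of every other line (log2 fold change 6.15 ± 0.42 SE, edgeR adjusted p = 4.50e-10). At ZT6 AT2G47780 was lower in cop1-4 than in Col-0 (log2 fold change -3.49 ± 1.03 SE, edgeR adjusted p = 0.00573). ADS1, a fatty acid desaturase, was higher in hy5-215 (log2 fold change 3.16 ± 0.13 SE, edgeR adjusted p = 2.96e-16) and lower in cop1-4 at ZT6 (log2 fold change -2.62 ± 0.20 SE, edgeR adjusted p = 1.55e-11) and at ZT0 (log2 fold change -2.84 ± 0.24 SE, edgeR adjusted p = 6.97e-11). NDB3, an NAD(P)H dehydrogenase of mitochondria, was higher in hy5-215 by 2.27 ± 0.33 (edgeR adjusted p = 1.69e-06) on the log2 scale and lower in cop1-4 at ZT0 (log2 fold change -2.77 ± 0.67 SE, edgeR adjusted p = 4.68e-04). SDH2-3, the seed form of a succinate dehydrogenase subunit, and AT5G16460, annotated as a seipin, a protein of oil body formation, did not pass the test in hy5-215 (log2 fold changes of 0.53 and -0.22) and were lower in cop1-4 at both times. The call of SDH2-3 at ZT0 is lost without Col-0 replicate 3 (adjusted p = 0.217).

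HSD6, a hydroxysteroid dehydrogenase of a family found on oil bodies, went the other way in cop1-4. Its mean was 19.1 ± 2.73 CPM in vil1-1 cop1-4, 4.24 ± 0.285 in cop1-4 and 0.353 ± 0.262 in Col-0 at ZT0 (SD, n = 3). HSD6 was higher in cop1-4 than in Col-0 at ZT6 (log2 fold change 1.60 ± 0.38 SE, edgeR adjusted p = 2.92e-04) and at ZT0 (log2 fold change 3.57 ± 0.30 SE, edgeR adjusted p = 6.03e-14). AT1G71250, annotated as a lipase of the GDSL family, was lower in hy5-215 (log2 fold change -0.89 ± 0.31 SE, edgeR adjusted p = 0.0249), a call lost without Col-0 replicate 3 of ZT0 (adjusted p = 0.172), without hy5-215 replicate 1 (0.120) or without hy5-215 replicate 2 (0.0888). It was lower in cop1-4 at both times (log2 fold change -3.44 at ZT6 and -2.89 at ZT0).

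Of the 9 genes of abscisic acid, cold and stress, 6 were higher and 1 lower in hy5-215. In cop1-4, 1 was higher and 6 lower at ZT6, and 2 were higher and 4 lower at ZT0. KIN1 and COR15B are genes induced by cold. At ZT6 KIN1 had 19.3, 16.9 and 23.3 CPM in vil1-1, 4.1, 4.11 and 6.22 in vil1-1 cop1-4, 0.869, 0.615 and 0.84 in cop1-4, and 6.87, 6.37 and 4.33 in Col-0. At ZT0 KIN1 had 3.89, 3.08 and 2.16 CPM in hy5-215, 2.03, 3.12 and 1.98 in vil1-1, 0.974, 1.76 and 1.41 in vil1-1 cop1-4, 0.115, 0.782 and 0.282 in cop1-4, and 0.411, 0.474 and 0.633 in Col-0. KIN1 was higher in the light samples than at the end of the night in vil1-1 (log2 fold change 3.06 ± 0.23 SE, edgeR adjusted p = 1.16e-12) and in Col-0 (log2 fold change 3.51 ± 0.32 SE, edgeR adjusted p = 1.11e-10), and the hy5-215 libraries lay above Col-0 (log2 fold change 2.59 ± 0.36 SE, edgeR adjusted p = 1.27e-06). In cop1-4 it was lower than in Col-0 at ZT6 (log2 fold change -2.90 ± 0.31 SE, edgeR adjusted p = 4.15e-09) and did not pass the test at ZT0 (log2 fold change -0.38 ± 0.57 SE, edgeR adjusted p = 0.575).

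COR15B had the largest change between times of the 100 genes. At ZT6 COR15B had 248, 263 and 291 CPM in vil1-1, 101, 88.9 and 99.9 in vil1-1 cop1-4, 14.9, 13.8 and 19.7 in cop1-4, and 114, 122 and 95.9 in Col-0. At ZT0 COR15B had 0.791, 0.84 and 0.389 CPM in hy5-215, 0.745, 1.3 and 0.866 in vil1-1, 1.03, 0.299 and 0.452 in vil1-1 cop1-4, 0.115, 0 and 0.094 in cop1-4, and 0.187, 0.0861 and 0.186 in Col-0. No library had more than 1.3 CPM at ZT0, and at ZT6 every library had at least 13.8 CPM, with vil1-1 highest and cop1-4 lowest. COR15B was higher at ZT6 than at ZT0 by 8.11 ± 0.18 in vil1-1, 7.44 ± 0.22 in vil1-1 cop1-4, 7.74 ± 0.41 in cop1-4 and 9.42 ± 0.25 in Col-0 on the log2 scale (edgeR adjusted p at most 2.19e-13). It was lower in cop1-4 at ZT6 (log2 fold change -2.77 ± 0.13 SE, edgeR adjusted p = 1.85e-14). It was higher in hy5-215 (log2 fold change 2.08 ± 0.68 SE, edgeR adjusted p = 0.019), a call lost without Col-0 replicate 2 of ZT0 (adjusted p = 0.0623) and without hy5-215 replicate 1 (0.0714) or 2 (0.0619). COR15B and COR15A, like KIN1 and KIN2, are related neighbouring genes, and how the authors' counting shared any reads between them is uncertain.

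HAI1 and HAI2 are protein phosphatases of the clade that restrains abscisic acid signalling, and their own RNA is induced by the hormone. At ZT0 HAI1 had 17.7, 22.2 and 17.7 CPM in hy5-215, 14.2, 13.5 and 11.6 in vil1-1, 3.9, 4.26 and 2.66 in vil1-1 cop1-4, 0.688, 0.782 and 0.658 in cop1-4, and 5.12, 4.56 and 6.7 in Col-0. The hy5-215 and vil1-1 libraries were the highest and did not overlap with Col-0, and cop1-4 was lowest. HAI1 was higher in hy5-215 (log2 fold change 1.81 ± 0.17 SE, edgeR adjusted p = 8.48e-11) and lower in cop1-4 at ZT0 (log2 fold change -2.95 ± 0.28 SE, edgeR adjusted p = 1.68e-11). HAI2 was higher in hy5-215 (log2 fold change 3.09 ± 0.43 SE, edgeR adjusted p = 2.18e-07). No read of HAI2 was seen in cop1-4 at ZT0 against 16 in Col-0, so that it was at least 3.93-fold lower, taking 3 reads over the group as the limit of a count of 0. HVA22B, a stress-induced protein, was higher in hy5-215 (log2 fold change 2.07 ± 0.29 SE, edgeR adjusted p = 1.97e-06) and lower in cop1-4 at both times (-3.58 at ZT6 and -2.39 at ZT0 on the log2 scale).

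ELIP2, an early light-induced protein that binds chlorophyll under light stress, was the gene most raised in cop1-4 at ZT0. At ZT6 ELIP2 had 3.36, 4.95 and 3.86 CPM in vil1-1, 16.4, 14 and 15.2 in vil1-1 cop1-4, 10.9, 7.43 and 5.74 in cop1-4, and 1.58, 2.43 and 2.46 in Col-0. At ZT0 ELIP2 had 1.15, 0.887 and 0.863 CPM in hy5-215, 2.61, 2.75 and 3.36 in vil1-1, 136, 134 and 135 in vil1-1 cop1-4, 26.8, 25.2 and 23.2 in cop1-4, and 0.374, 0.474 and 0.744 in Col-0. The vil1-1 cop1-4 libraries were highest at both times, cop1-4 came second, and Col-0 was lowest. ELIP2 was higher in cop1-4 than in Col-0 at ZT6 (log2 fold change 1.92 ± 0.20 SE, edgeR adjusted p = 4.68e-09) and at ZT0 (log2 fold change 5.54 ± 0.23 SE, edgeR adjusted p = 1.82e-17). Between times it was higher at ZT6 in vil1-1 (0.50) and in Col-0 (1.98) and lower at ZT6 in vil1-1 cop1-4 (-3.15) and in cop1-4 (-1.64) on the log2 scale. The vil1-1 call is lost without ZT0 replicate 1 or 2 or ZT6 replicate 2 (adjusted p 0.081 to 0.215), on gene totals without TMM (0.0757) and with no filter on low counts (0.052). GolS1, which makes galactinol for raffinose sugars, was lower in hy5-215 (log2 fold change -0.96 ± 0.10 SE, edgeR adjusted p = 2.37e-10) and lower at ZT6 in all 4 lines.

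**Figure D4:**
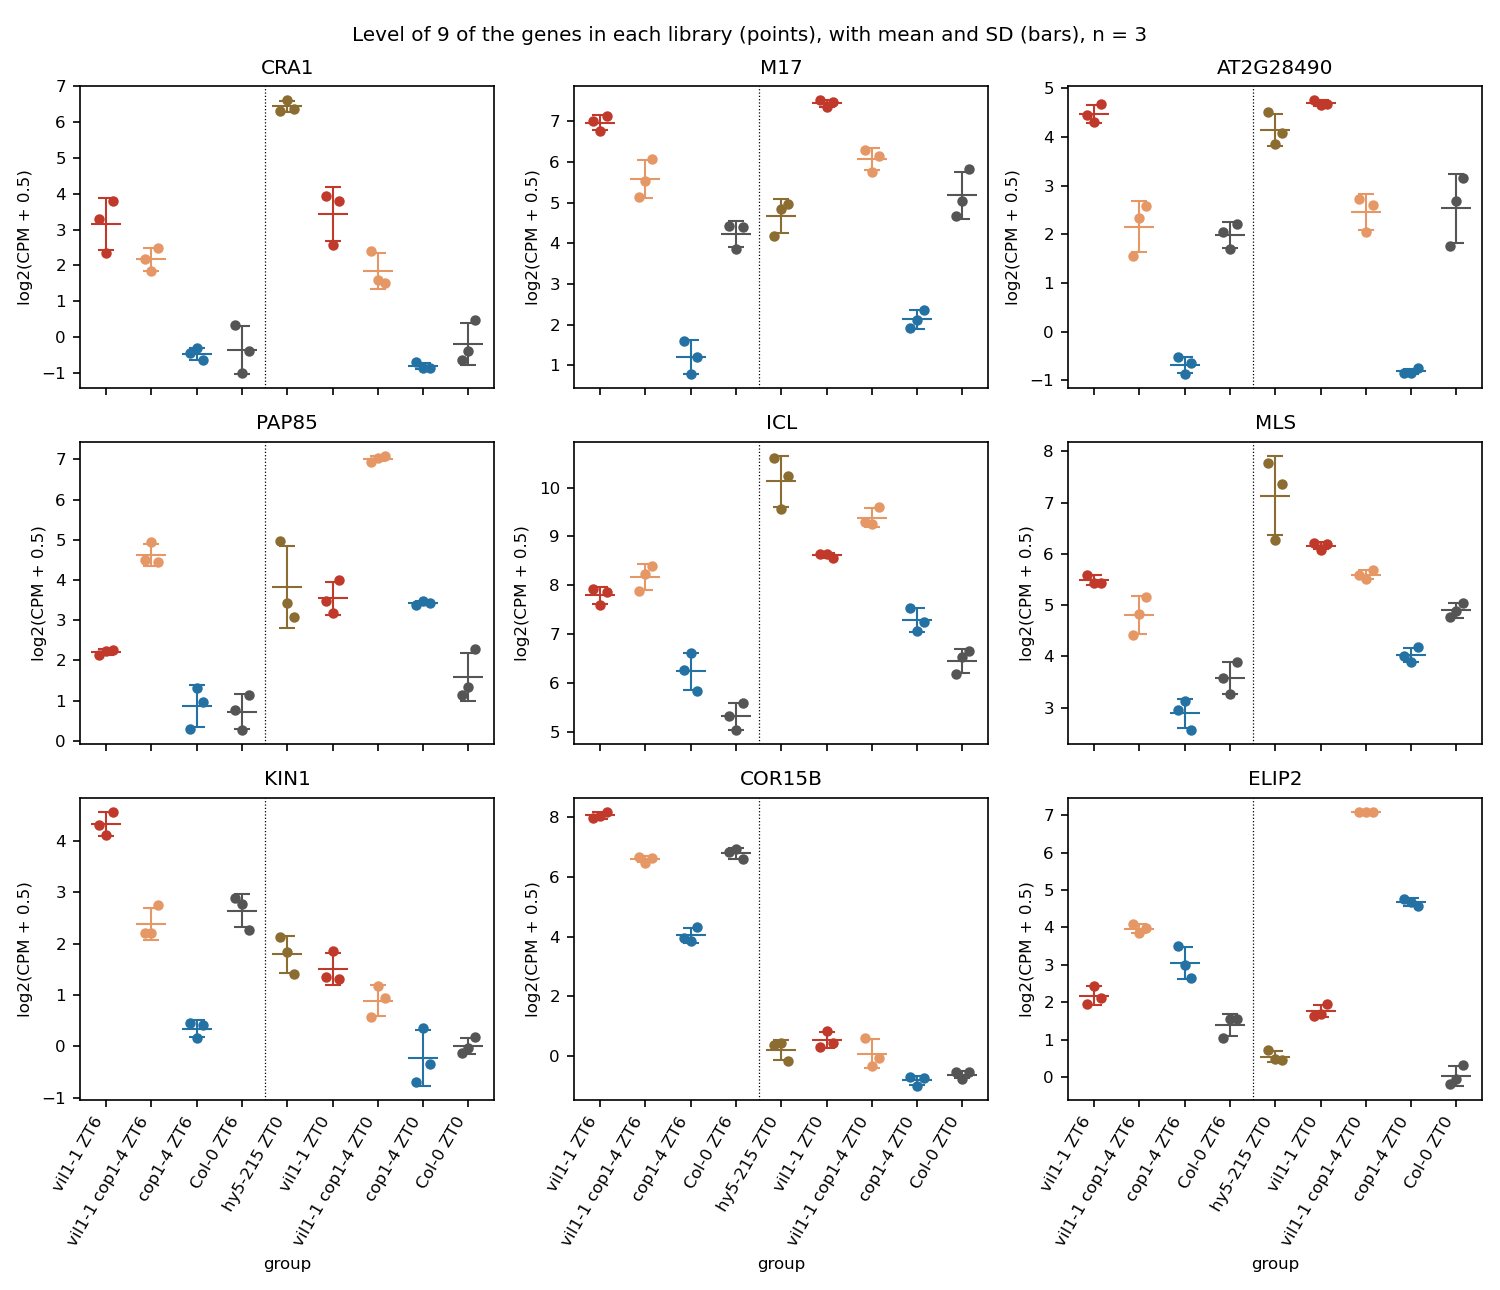
Levels of 9 of the genes in each library as log2(CPM + 0.5) (points), with mean and SD (bars, n = 3), ZT6 left of the dotted line and ZT0 right of it. CRA1, ICL and MLS have their highest mean in hy5-215, M17, AT2G28490 and KIN1 their lowest in cop1-4, PAP85 and ELIP2 are highest in vil1-1 cop1-4, and COR15B separates the 2 times in every line.

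The 8 cell wall genes held 6 that were higher and 2 that were lower in hy5-215. In cop1-4, 2 were higher and 3 lower at ZT6, and the counts at ZT0 were the same. XTH25, an enzyme that cuts and rejoins xyloglucan, had the largest fall of the 100 genes at ZT6 against ZT0 in vil1-1 and in Col-0. At ZT6 XTH25 had 0.90, 0.63 and 0.844 CPM in vil1-1, 4.75, 9.06 and 5.63 in vil1-1 cop1-4, 2.22, 2.31 and 1.96 in cop1-4, and 0.149, 0.0442 and 0.162 in Col-0. At ZT0 XTH25 had 2.55, 2.85 and 2.94 CPM in hy5-215, 12.4, 12.6 and 10.5 in vil1-1, 38.7, 44.3 and 43.7 in vil1-1 cop1-4, 14.3, 15.7 and 17.9 in cop1-4, and 5.83, 3.92 and 5.84 in Col-0. Within each line the ZT6 libraries lay below the ZT0 libraries, and at each time vil1-1 cop1-4 lay above all others. XTH25 was lower at ZT6 in vil1-1 (log2 fold change -3.92 ± 0.21 SE, edgeR adjusted p = 4.98e-18) and in Col-0 (log2 fold change -5.32 ± 0.33 SE, edgeR adjusted p = 3.27e-16). It was higher in cop1-4 than in Col-0 at ZT6 (log2 fold change 4.05 ± 0.41 SE, edgeR adjusted p = 1.40e-10) and at ZT0 (log2 fold change 1.61 ± 0.15 SE, edgeR adjusted p = 2.83e-11), and lower in hy5-215 (log2 fold change -0.92 ± 0.19 SE, edgeR adjusted p = 1.87e-04).

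EXPA2, an expansin that loosens walls, was lower in cop1-4 at ZT0 (log2 fold change -4.63 ± 0.89 SE, edgeR adjusted p = 9.85e-05) and higher in hy5-215 (log2 fold change 1.39 ± 0.38 SE, edgeR adjusted p = 0.00603). BGLU19, a beta-glucosidase, averaged 40.1 ± 5.14 CPM in vil1-1, 5.71 ± 1.8 in vil1-1 cop1-4, 0.568 ± 0.519 in cop1-4 and 12.1 ± 3.21 in Col-0 at ZT6 (SD, n = 3), and was lower in cop1-4 (log2 fold change -4.42 ± 0.45 SE, edgeR adjusted p = 4.17e-08). In BGLU19, as in TIP3;1, the mean of the double mutant was below that of Col-0. BGLU4, another beta-glucosidase, was among the 5 most raised genes in hy5-215 (log2 fold change 3.77 ± 0.53 SE, edgeR adjusted p = 2.90e-06). BGAL7, a beta-galactosidase, was higher in hy5-215 by 2.22 ± 0.19 on the log2 scale and lower at ZT6 in Col-0 (log2 fold change -2.44 ± 0.27). sks13, a protein like the wall protein SKU5, had 1 read in cop1-4 at ZT6 against 18 in Col-0. EXT11, annotated as a pseudogene of an extensin, was higher at ZT6 in vil1-1 (log2 fold change 1.89 ± 0.46 SE, edgeR adjusted p = 0.00111).

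Of the 12 genes of transcription, chromatin and RNA, 4 were higher and 1 lower in hy5-215. In cop1-4, 3 were higher and 3 lower at ZT6, and 4 were higher and 7 lower at ZT0. SNZ (SCHNARCHZAPFEN) is an AP2-like transcription factor that represses flowering. At ZT6 SNZ had 40.7, 38.2 and 38.9 CPM in vil1-1, 26.3, 23.1 and 24.1 in vil1-1 cop1-4, 11, 11.3 and 12.8 in cop1-4, and 13.7, 13.8 and 13.3 in Col-0. At ZT0 SNZ had 11, 12 and 7.34 CPM in hy5-215, 41.7, 47.6 and 41.6 in vil1-1, 24.7, 25.9 and 22.8 in vil1-1 cop1-4, 10.9, 9.1 and 11.7 in cop1-4, and 14.3, 15.3 and 15.1 in Col-0. The vil1-1 libraries were highest and did not overlap with any other line, and vil1-1 cop1-4 lay above Col-0 as well. SNZ was lower in hy5-215 than in Col-0 (log2 fold change -0.56 ± 0.11 SE, edgeR adjusted p = 6.01e-05) and in cop1-4 at ZT0 (log2 fold change -0.49 ± 0.11 SE, edgeR adjusted p = 1.66e-04), and it was not called between times in any line.

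MYB101, a transcription factor known from pollen tubes and abscisic acid responses, was lower at ZT6 than at ZT0 in all 4 lines. At ZT6 MYB101 had 4.03, 3.81 and 4.18 CPM in vil1-1, 2.74, 4.95 and 5.72 in vil1-1 cop1-4, 0.917, 1.49 and 0.70 in cop1-4, and 0.773, 0.752 and 1.07 in Col-0. At ZT0 MYB101 had 3.71, 3.45 and 4.75 CPM in hy5-215, 11.3, 12.3 and 10.1 in vil1-1, 7.45, 5.72 and 10.3 in vil1-1 cop1-4, 3.09, 1.23 and 2.44 in cop1-4, and 2.91, 4.18 and 5.06 in Col-0. The 2 lines with vil1-1 overlapped each other at both times and lay above cop1-4 and Col-0 at each time. The log2 fold change between times was -1.48 ± 0.24 in vil1-1 and -2.21 ± 0.34 in Col-0 (SE, edgeR adjusted p = 8.59e-06 and 2.86e-06). In vil1-1 cop1-4 the call is lost without ZT0 replicate 3 or ZT6 replicate 1 (adjusted p 0.0688 to 0.0875), on gene totals without TMM (0.0836) and when the line was fitted alone (0.0719). In cop1-4 it is lost without replicate 1 or 3 of either time (0.0668 to 0.118) and on gene totals without TMM (0.0674).

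AGO9, an Argonaute protein of small RNA silencing in ovules, and NRPE3B, a subunit of RNA polymerase V of the RNA-directed DNA methylation pathway, were read at a few CPM. AGO9 averaged 3.06 ± 0.185 CPM in vil1-1, 2.31 ± 0.425 in vil1-1 cop1-4, 1.02 ± 0.301 in cop1-4 and 0.559 ± 0.335 in Col-0 at ZT0 (SD, n = 3). NRPE3B averaged 3.36 ± 0.345, 1.4 ± 0.446, 0.118 ± 0.103 and 1.13 ± 0.0977 CPM in the same 4 lines (SD, n = 3). AGO9 was higher in cop1-4 than in Col-0 at ZT0 (log2 fold change 0.88 ± 0.36 SE, edgeR adjusted p = 0.0297), and NRPE3B was lower (log2 fold change -3.14 ± 0.53 SE, edgeR adjusted p = 1.42e-06). The AGO9 call is lost without Col-0 replicate 1 or 2 or cop1-4 replicate 3 (adjusted p 0.0548 to 0.255), when both lines were fitted alone (0.0743) and on gene totals without TMM (0.454). Neither passed the test in hy5-215 (0.63 and -0.17 on the log2 scale).

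PAB5, a poly(A)-binding protein known from flowers, and AT2G21235, annotated as a bZIP transcription factor, were among the genes most raised in cop1-4. AT2G21235 had 0.196, 0.48 and 0.402 CPM in vil1-1, 2.26, 2.77 and 3.34 in vil1-1 cop1-4, 1.26, 0.923 and 0.793 in cop1-4, and 0.0595, 0.0442 and 0 in Col-0 at ZT6. It had 0.108, 0.0933 and 0.0432 CPM in hy5-215, 1.32, 1.37 and 1.12 in vil1-1, 8.71, 11.4 and 10.2 in vil1-1 cop1-4, 3.44, 1.56 and 3.1 in cop1-4, and 0.0747, 0.387 and 0.298 in Col-0 at ZT0. Its cop1-4 libraries lay above those of Col-0 at both times, and those of vil1-1 cop1-4 above both. At ZT0 AT2G21235 was higher in cop1-4 (log2 fold change 3.42 ± 0.36 SE, edgeR adjusted p = 3.76e-11), and at ZT6 its 3 reads in Col-0 against 61 in cop1-4 gave a level higher by a factor of 28.8 (95% counting interval 9.84 to 139). PAB5 had 30 reads in cop1-4 against 2 in Col-0 at ZT0, a level higher by a factor of 20.4 (95% counting interval 5.63 to 168). AT3G53650, a histone, was higher at ZT6 in all 4 lines, by 1.80 in vil1-1 and 2.09 in Col-0 on the log2 scale. AT5G10120, of the EIN3 family of ethylene response factors, had 1 read in cop1-4 against 54 in Col-0 at ZT0, a level lower by a factor of 39.8 (95% counting interval 7.14 to 1572).

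Of the 46 other genes, 21 were higher and 5 lower in hy5-215. In cop1-4, 8 were higher and 25 lower at ZT6, and 2 were higher and 25 lower at ZT0. AT1G68250, an uncharacterised protein, had the largest rise in hy5-215 of all 100 genes. At ZT0 AT1G68250 had 57.3, 21.8 and 27.5 CPM in hy5-215, 1.42, 0.817 and 1.33 in vil1-1, 0.688, 0.785 and 0.396 in vil1-1 cop1-4, 0, 0 and 0.094 in cop1-4, and 0.0747, 0.0861 and 0.112 in Col-0. The hy5-215 libraries had over 10 times the level of any other library (log2 fold change 8.54 ± 0.54 SE, edgeR adjusted p = 4.88e-10). CP1, a cysteine proteinase, was higher in hy5-215 as well (log2 fold change 3.59 ± 0.33 SE, edgeR adjusted p = 3.61e-08), as was AT1G04660, a glycine-rich protein (log2 fold change 3.12 ± 0.18 SE, edgeR adjusted p = 9.18e-17). Among the genes lower in hy5-215, AT3G21380, a mannose-binding lectin, and AT2G34315, annotated as an avirulence-induced protein, changed most, with log2 fold changes of -1.67 ± 0.18 and -1.55 ± 0.26.

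In cop1-4 the largest falls among the other genes were in AT4G01390, annotated as a TRAF-like protein, and AT1G04660. AT4G01390 had 1 read in cop1-4 against 212 in Col-0 at ZT0, a level lower by a factor of 156 (95% counting interval 28 to 6170.5). AT1G04660 had 1 against 152 reads, a factor of 112 (95% counting interval 20.1 to 4424). At ZT6 AT2G34315 had 1 read in cop1-4 against 50 in Col-0, a factor of 35.3 (95% counting interval 6.34 to 1396), and AT1G65090, annotated as a nucleolin, had 3 against 99, a factor of 23.3 (95% counting interval 7.98 to 113). The interval covers counting error of the smaller count only. AT4G32510, annotated as a bicarbonate transporter, was instead higher in cop1-4 at ZT6 (log2 fold change 2.54 ± 0.37 SE, edgeR adjusted p = 9.67e-08) and at ZT0 (log2 fold change 2.57 ± 0.33 SE, edgeR adjusted p = 5.50e-09), as was AT2G25510, an uncharacterised protein (3.09 ± 0.15 at ZT0 on the log2 scale).

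Between times, AT4G12290, a copper amine oxidase, was higher at ZT6 in all 4 lines, by 2.72 ± 0.13 in vil1-1, 3.28 ± 0.13 in vil1-1 cop1-4, 3.35 ± 0.16 in cop1-4 and 2.85 ± 0.17 in Col-0 on the log2 scale. AT5G47590, a small heat shock protein, was lower at ZT6 in all 4, with log2 fold changes of -3.83 ± 0.17, -2.57 ± 0.18, -3.23 ± 0.26 and -3.32 ± 0.25 in the same order of lines. AT1G19540, annotated as an NmrA-like protein, was lower at ZT6 in vil1-1 (log2 fold change -3.43 ± 0.18 SE, edgeR adjusted p = 2.40e-13) and in Col-0 (log2 fold change -3.95 ± 0.22 SE, edgeR adjusted p = 5.69e-13). Each of these genes moved the same way in the lines with and without vil1-1. CP1 did not: it was lower at ZT6 in vil1-1 (log2 fold change -1.11 ± 0.27 SE, edgeR adjusted p = 0.00118) and higher in Col-0 (log2 fold change 1.01 ± 0.38 SE, edgeR adjusted p = 0.0221), a call lost without Col-0 replicate 2 of ZT0 (adjusted p = 0.0842) or replicate 3 of ZT6 (0.0751).

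Since the rule used all 4 pairs, it was also read in libraries it had not used. The top 100 genes by ZT0 alone, of which 81 belong to the set described here, were tested at ZT6: 94 were higher in vil1-1 than in Col-0, where 10.4% of all kept genes were, and 94 in vil1-1 cop1-4 than in cop1-4 (10.2%), with medians of 1.63 and 2.16 on the log2 scale and none lower in either. The top 100 by ZT6 alone, with 67 of the set, were tested at ZT0: 83 were higher in vil1-1 (5.19% of all kept genes) and 88 in vil1-1 cop1-4 (9.36%), with medians of 1.43 and 2.17. Genes chosen in the Col-0 background alone, with 64 of the set, were higher in vil1-1 cop1-4 than in cop1-4 in 85 cases at ZT6 and 73 at ZT0, with 1 lower at each time. Genes chosen in the cop1-4 background alone, with 52 of the set, were higher in vil1-1 than in Col-0 in 77 cases at ZT6 and 59 at ZT0, with 2 and 1 lower. Genes lower in these readings compare with 10.6%, 4.78%, 7.67% and 8% of all kept genes in vil1-1 at ZT6, vil1-1 at ZT0, vil1-1 cop1-4 at ZT6 and vil1-1 cop1-4 at ZT0. From one time to the other 83 to 94 of 100 genes so chosen were called higher, and from one background to the other 59 to 85. The genes and these readings were taken up with earlier results of the same libraries known.

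The size of the difference between vil1-1 lines and their VIL1 parents varied with background and time, which is given as a description. The difference was larger in the cop1-4 background, on the mean of both times, for 68 genes and larger in the Col-0 background for 32, with a median shift of 0.22 on the log2(CPM + 0.5) scale. The added 0.5 shrinks differences most where the VIL1 parent is near 0, so these counts and the shift depend on that scale. In the edgeR fit, which adds no 0.5 CPM, median log2 fold changes were 1.61 and 1.46 in vil1-1 at ZT6 and ZT0. In vil1-1 cop1-4 against cop1-4 they were 2.37 and 2.20. On the log2(CPM + 0.5) scale the difference was larger at ZT6 for 57 genes and at ZT0 for 43, with a median shift of 0.02. PAP85, AT4G32510 and M17 had the largest shifts towards the cop1-4 background, of 1.97, 1.76 and 1.71. AT1G04660, AT1G14950 and CRA1 had the largest towards the Col-0 background, of -1.36, -1.14 and -1.13. In cop1-4, however, AT1G04660 had 3 reads at ZT6 and 1 at ZT0, and AT1G14950 had 11 and 3. CRA1 was below 0.5 CPM in every cop1-4 library. The added 0.5 CPM limits the difference at such levels, so the order of the backgrounds may depend on the scale for these genes. COR15B, AT1G02770 and MPL1, a lipase, shifted most towards ZT6, by 0.89, 0.70 and 0.62, and ELIP2, CP1 and AT4G32510 towards ZT0, by -1.26, -1.15 and -0.71.

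Lists of genes of the same pathways were read beyond the 100. Over all kept genes, 10.4% were higher and 10.6% lower in vil1-1 than in Col-0 at ZT6, 5.19% and 4.78% at ZT0, 10.2% and 7.67% in vil1-1 cop1-4 than in cop1-4 at ZT6, and 9.36% and 8% at ZT0. The shares in hy5-215 and cop1-4 are those given with the functional groups. A list of seed storage, oil body and late embryogenesis genes has 16 genes, of which 11 were kept and are not among the 100. Of these 11, 6 were higher in vil1-1 than in Col-0 at ZT6 and 3 at ZT0, 8 in vil1-1 cop1-4 than in cop1-4 at ZT6 and 6 at ZT0, and none was lower. In hy5-215, 8 of the 11 were higher and none lower, and in cop1-4 1 was higher and 6 were lower at each time. OLE1, an oleosin of the oil body surface, had log2 fold changes of 2.05 ± 0.40 in vil1-1 at ZT6 and 2.14 ± 0.37 at ZT0 (edgeR adjusted p = 3.25e-04 and 1.85e-04). EM1, a late embryogenesis protein, had 1.88 ± 0.36 in vil1-1 at ZT6 (adjusted p = 1.74e-04) and also passed the test at ZT0. With its 2 genes of the set included, the median of the list was 2.12 in hy5-215 and -1.70 and -2.56 in cop1-4 at ZT6 and ZT0.

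Of 6 further oil mobilisation genes, 3 were higher in vil1-1 at ZT6 and 1 at ZT0, and in vil1-1 cop1-4 1 was higher at ZT6, and at ZT0 1 was higher and 2 were lower. PCK1, which makes sugar from the products of the cycle, was higher in all 4 pairs. In hy5-215 5 of the 6 were higher and 0 lower, and in cop1-4 5 were higher and 0 lower at ZT6, and 2 were higher and 1 lower at ZT0. Of 11 further cold and dehydration genes, 6 were higher in vil1-1 at ZT6 and 3 at ZT0, 10 in vil1-1 cop1-4 at ZT6 and 5 at ZT0, with none lower. In hy5-215 5 of the 11 were higher and 1 lower. In cop1-4 1 was higher, CBF2, and 9 were lower than in Col-0 at ZT6, and 1 was higher, GOLS3, and 5 were lower at ZT0.

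Genes known as targets of Polycomb silencing were read too. Of 26 listed regulators of flowering and development 17 were kept, and none is among the 100. In hy5-215 3 were higher and 2 lower, and in cop1-4 6 were higher and 3 lower at ZT6 and 6 higher and 4 lower at ZT0. In vil1-1, 5 were higher and 1 lower at ZT6 and 3 higher and 1 lower at ZT0, and in vil1-1 cop1-4 2 were higher and 2 lower at ZT6 and 2 higher and 1 lower at ZT0. FLC averaged 15.2 ± 0.103 CPM in vil1-1 against 8.2 ± 0.964 CPM in Col-0 at ZT6 (SD, n = 3; log2 fold change 0.88 ± 0.10 SE, edgeR adjusted p = 2.99e-09) and 11.7 ± 1.71 CPM in vil1-1 cop1-4 against 11.9 ± 0.556 CPM in cop1-4 (-0.04 ± 0.10, adjusted p = 0.833). MAF5, a relative of FLC, was higher in all 4 pairs. ABI3, a regulator of seed maturation, was higher in vil1-1 cop1-4 than in cop1-4 at both times and was not called in vil1-1. Of 12 kept genes of PRC2 and the VIN3-like family, EMF1 and VIL1 itself were lower in all 4 pairs. The other calls in this family were MSI1, lower in vil1-1 at ZT6, VEL1, higher in vil1-1 at ZT6, and CLF, higher in vil1-1 cop1-4 at both times.

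Lists of 3 other pathways hold no gene of the 100. Of 10 genes of dark and sugar starvation, 9 were higher in vil1-1 at ZT6 and 0 at ZT0, with none lower. In vil1-1 cop1-4 0 were higher and 0 lower at ZT6, and 0 were higher and 2 lower at ZT0. In hy5-215 6 were higher and 0 lower, and in cop1-4 9 were higher and 0 lower at ZT6 and 8 higher and 1 lower at ZT0. Of 8 kept genes of salicylate and defence, 0 were higher and 2 lower in vil1-1 at ZT6, and none was called at ZT0. In vil1-1 cop1-4 5 were higher and 0 lower at ZT6, and at ZT0 1 was higher and 3 were lower. In hy5-215 2 were higher and 4 lower, and in cop1-4 2 were higher and 3 lower at ZT6 and 2 higher and 4 lower at ZT0. Of 11 genes of PIF signalling and shade, 7 were higher in vil1-1 at ZT6 and 4 at ZT0, and 3 in vil1-1 cop1-4 at each time, with none lower. In hy5-215 9 were higher and 1 lower, and in cop1-4 1 was higher and 9 lower at ZT6 and 0 higher and 10 lower at ZT0.

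Markers of other cell types and stages were read beside these results. The 6 seed or embryo markers, of which CRA1 is one, summed to 8.13 to 18.8 CPM in vil1-1, 4.8 to 8.14 in vil1-1 cop1-4, 0.435 to 0.513 in cop1-4 and 0.928 to 1.81 in Col-0 at ZT6. At ZT0 they summed to 127 to 137 CPM in hy5-215, 9.02 to 20.2 in vil1-1, 4.24 to 8.6 in vil1-1 cop1-4, 0.287 to 0.67 in cop1-4 and 1.16 to 2.9 in Col-0. Without CRA1 the sums at ZT0 were 38.9 to 47.7, 3.64 to 6.49, 1.72 to 3.78, 0.172 to 0.614 and 0.99 to 2.01 CPM in the same order of lines. LEC1, a master regulator of embryogenesis, had 0 reads in hy5-215 and vil1-1 at ZT0 and in vil1-1, vil1-1 cop1-4, cop1-4 and Col-0 at ZT6, and SESA1, a 2S albumin, had 0 reads in vil1-1, cop1-4 and Col-0 at ZT6 and in cop1-4 and Col-0 at ZT0. The seed marker sum thus moved with the seed genes of the set in hy5-215, vil1-1 and cop1-4, and the part of that sum in those results was not tested.

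Markers of green tissue, root, stomata and pollen were summed in the same way. The 3 green tissue markers summed to 31782 to 32949.6 CPM in vil1-1, 38096 to 45809 in vil1-1 cop1-4, 38368 to 40619 in cop1-4 and 32298 to 33574 in Col-0 at ZT6. At ZT0 they summed to 44531 to 46622 CPM in hy5-215, 24719 to 27304 in vil1-1, 40230.5 to 43342 in vil1-1 cop1-4, 36106 to 42475 in cop1-4 and 27463 to 29042 in Col-0. Of these markers, RBCS1A was called higher in cop1-4 than in Col-0 at both times. CAB3 was called lower at both times and LHCB1.3 lower at ZT0. The 6 root markers summed to 154 to 160.0 CPM in vil1-1, 119.7 to 125 in vil1-1 cop1-4, 98.8 to 111 in cop1-4 and 181 to 192 in Col-0 at ZT6. Their sums at ZT0 were 132 to 146 CPM in hy5-215, 127 to 140.2 in vil1-1, 149 to 174 in vil1-1 cop1-4, 150.2 to 161 in cop1-4 and 136 to 145 in Col-0. The cop1-4 sums thus lay below those of Col-0 at ZT6 and above them at ZT0. Among single root markers, SCR was called higher and PHT1;1 and COBL9 lower in cop1-4 at both times, and WOX5 lower at ZT6. The median log2 fold change of the 6 in cop1-4 was -0.51 at ZT6 and -0.50 at ZT0. The 5 pollen and flower markers summed to 0.587 to 1.05 CPM in vil1-1, 2.63 to 4.36 in vil1-1 cop1-4, 4.73 to 9.13 in cop1-4 and 0.711 to 1.64 in Col-0 at ZT6, and to 0.432 to 1.73 CPM in hy5-215, 0.52 to 0.779 in vil1-1, 4.36 to 5.54 in vil1-1 cop1-4, 10.03 to 11.9 in cop1-4 and 0.633 to 1.49 in Col-0 at ZT0. Only 2 of these 5 markers passed the filter on low counts. PI, a floral regulator also on the list of Polycomb targets, held most of the cop1-4 sums, with means of 7.15 CPM at ZT6 and 10.9 CPM at ZT0. It was the only 1 of these markers called in cop1-4 against Col-0. VGD1, a pollen marker, had 0 reads in all 9 groups. The 6 stomatal markers summed to 29.1 to 34.2 CPM in vil1-1, 32.2 to 33.3 in vil1-1 cop1-4, 32.5 to 43.4 in cop1-4 and 37 to 43.1 in Col-0 at ZT6, and to 32.3 to 32.8 CPM in hy5-215, 29.3 to 30.8 in vil1-1, 36.7 to 41.4 in vil1-1 cop1-4, 43.2 to 44.2 in cop1-4 and 31.4 to 34.1 in Col-0 at ZT0. All of these sums are given without a test.

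The 100 genes lie over the whole genome. Chromosomes 1 to 5 hold 25, 21, 13, 13 and 28 of them, where 26.5%, 15%, 19.9%, 15.6% and 23.1% of all kept genes lie. Within 2 Mb of VIL1 lie 6 of them, against 3.46% of all kept genes. With 1 vil1-1 allele in both backgrounds, other variants near VIL1 and its loss cannot be told apart for these 6 genes. In 3 pairs the genes are near neighbours: AT1G14930 and AT1G14950, which encode related proteins, and BGLU19 and AT3G21380 have 1 gene between them, and AT3G62455, a pseudogene, adjoins AT3G62460. Protein-coding genes make up 97 of the 100, against 96.6% of all kept genes, and 44 have a symbol in the gene table.

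The genes were low in seedlings with VIL1, which the rule favours. Their median level was below that of all kept genes in vil1-1 too. Per kilobase of exon at ZT0, their median level was 3.35 CPM in vil1-1, 0.542 CPM in cop1-4 and 1.40 CPM in Col-0, against 6.70, 6.65 and 6.69 CPM for all kept genes. Their median exonic length was 1515 bases, against 1762. AT3G26010 had no read in cop1-4 or Col-0 at either time, and 34 to 49 reads per group in vil1-1 and vil1-1 cop1-4.

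For 17 of the 100 genes the annotation overlaps another gene, and the strand setting of the authors' counting is not given, so that their counts may hold or lack reads of the other gene. They are BETA-TIP, TIP3;1, AT1G71250, AT1G65090, PAB5, AT1G19540, AT2G47780, COR15B, AT2G26355, GolS1, BGLU19, AT3G03341, AT4G01390, AT5G42280, EXPA2, AT5G60250 and AT5G60610. Values given above for these genes carry that uncertainty.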

How the data were processed

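For each library the authors deposited raw read counts, as whole numbers for every gene. FastQC, STAR, edgeR and the TAIR10 build are named, with no version, per the submitters' processing notes. Per the labels' protocols, libraries came from 1 kit that marks strand, but the counting tool and its strand setting are not given in the sources used here. The 5 lines of each table that name no gene held 3.76 to 9.18% of its reads and were left out. A gene table of TAIR10.1 gave names for 31912 of 32678 identifiers, and RefSeq sequence of that build gave promoters.

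The members and lists were chosen with earlier results of these data known. The rule that chose the 100 genes used CPM on gene totals with a pseudocount of 0.5. Counts were then fitted in R 4.3.3 with edgeR 4.0.16 (limma 3.58.1): genes kept by filterByExpr over the 9 groups, TMM scaling, a robust quasi-likelihood fit with 1 coefficient per group over all 27 libraries, and Benjamini-Hochberg adjustment over 21448 kept genes at 0.05. Every adjusted p comes from that fit unless another setting is named beside it. Printed levels are CPM on TMM-scaled library sizes, with SD over 3 libraries. Libraries held 19.7 to 33.6 M reads in genes. With 3 reads or fewer in a group, the ratio of levels with a 95% exact Poisson interval of the smaller count, or a bound at 3 reads, replaces the fitted fold; both cover counting error only.

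Genes named are VIL1, the 12 genes with a symbol and the largest smallest difference, those on fixed lists, up to 5 called genes on each side of a comparison, those around the threshold, neighbours, and the 3 largest shifts on each side between backgrounds and times. Genes named beyond that rule to describe their functional group, and the groups themselves, were chosen after values were seen. Alternatives were DESeq2 1.42.0, its size factors, no filter, a replicate block, the compared groups alone, leaving out each library, and other settings of the rule. Gene totals without TMM were added after seeing the data.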

Additional observations from a re-analysis of the deposited data

Results flagged for a closer look

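The difference between cop1-4 and Col-0 was itself tested between the 2 times, for the 23 genes named in a cop1-4 comparison. In 7 of them the effect at ZT6 differed from that at ZT0 by the edgeR interaction term at an adjusted p under 0.05. In all, 19 of the 100 genes had an adjusted p under 0.05, against 46.6% of all kept genes. The median level of the 100 genes at ZT0 was below that of all kept genes. Low counts make a call less likely, so nothing is read from that share.

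ELIP2, the early light-induced protein, had an interaction of -3.62 ± 0.36 (SE, adjusted p = 4.59e-09), with log2 fold changes of 1.92 at ZT6 and 5.54 at ZT0. HSD6 had -1.97 ± 0.54 (adjusted p = 0.00245), with 1.60 and 3.57, and AT2G25510 -1.78 ± 0.21 (adjusted p = 5.76e-07), with 1.31 and 3.09. These 3 genes were thus higher by more in cop1-4 at ZT0. XTH25 had 2.43 ± 0.49 (adjusted p = 8.64e-05), with 4.05 and 1.61, and AT1G19540 2.20 ± 0.31 (adjusted p = 3.98e-06), with 2.54 and 0.34, so that they were higher by more at ZT6. KIN1 had -2.52 ± 0.72 (adjusted p = 0.00502), with -2.90 and -0.38, a fall found at ZT6. At ZT0 KIN1 was read at very low levels in both lines, so a fall of that size might not be seen there. AT4G01390 had 3.01 ± 1.05 (adjusted p = 0.0163), an estimate that rests on 1 read in cop1-4 against 212 in Col-0 at ZT0. Its level was lower in cop1-4 by a log2 fold change of -3.92 at ZT6, and by a ratio of 156 (95% counting interval 28 to 6170.5) at ZT0. The cause of these differences was not tested.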

How the results depend on the processing

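Counts of the 100 genes called moved by over 1.5 times under 1 setting, gene totals without TMM: 9 in place of 15 higher in cop1-4 at ZT0, 20 in place of 11 higher at ZT6 in cop1-4 and 23 in place of 15 in vil1-1 cop1-4. That setting by construction shifts all genes of a comparison together, by the amounts given for the median of all genes. Leaving out 1 library at a time gave 45 to 53 higher and 9 to 12 lower in hy5-215, 15 to 17 and 47 to 54 in cop1-4 at ZT6, and 13 to 16 and 49 to 57 at ZT0. For ZT6 against ZT0 it gave 16 to 19 higher and 28 to 39 lower in vil1-1, 13 to 17 and 29 to 39 in vil1-1 cop1-4, 9 to 14 and 22 to 32 in cop1-4, and 16 to 21 and 30 to 40 in Col-0. Genes chosen by ZT0 alone were higher in 86 to 95 and 83 to 95 cases at ZT6, and those chosen by ZT6 alone in 69 to 84 and 83 to 89 at ZT0. Those chosen in Col-0 gave 72 to 85 at ZT6 and 67 to 74 at ZT0, and those chosen in cop1-4 71 to 80 and 50 to 60. Of the 100 genes, 91 to 99 were chosen again without 1 library, 73 and 71 with pseudocounts of 0.1 and 2, 95 with TMM-scaled CPM and 98 with means of log2 values.

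Of 89 results for named genes, 1058 values under other settings were computed, of which 1035 kept direction and call, 23 kept direction and lost the call, and 0 reversed. Over all 401 calls of the 100 genes in the 7 comparisons, 4791 values were computed, of which 298 kept direction and lost the call and 2 reversed, in 88 of the calls. Both reversals were in cop1-4 against Col-0 at ZT0 on gene totals without TMM, for GolS1 (log2 fold change -0.22, adjusted p = 0.0385) and AT2G42040 (-0.34, adjusted p = 0.000803). Replicate numbers did not pair the libraries: deviations of libraries with the same number had a median correlation of -0.007 (-0.133 to 0.128). With the replicate block the counts of higher and lower genes were 51 and 11 in hy5-215, 17 and 53 in cop1-4 at ZT6, and 16 and 58 at ZT0. Depth limits genes with few reads in a group, such as HAI2 with 0 reads over the 3 cop1-4 libraries and PAB5 with 2 over the 3 Col-0 libraries at ZT0.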
